A study of Mus musculus with 8 samples.

Results

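The mineralization and phosphate handling genes are 10 genes fixed by name out of 55359 identifiers in the deposited table. They are the phosphate importers Slc20a1 and Slc20a2, the phosphatases Alpl and Phospho1, the pyrophosphate genes Enpp1 and Ank (also written Ankh), and the osteocyte phosphate regulators Phex, Dmp1, Mepe and Fgf23. Of these, 7 passed the expression filter, Dmp1 had counts but fell below it, and Mepe and Fgf23 were undetected, with 0 counts in each of the 8 libraries. The cells were MLO-Y4, an immortalised osteocyte-like mouse line derived from bone cells carrying a T antigen transgene, so that all libraries come from 1 line, labelled wild type. Poly(A) RNA was sequenced from 4 libraries of non-irradiated cells (C5 to C8) and 4 libraries of cells given a 1 min exposure to a pulsed Er:YAG laser (L5 to L8; wavelength 2940 nm, 6 J/cm2, 25 cm from a 35-mm dish). Both groups grew on collagen-coated dishes in medium with 5% fetal bovine and 5% bovine calf serum, were seeded 72 h before irradiation, and were harvested 6 h after it. Medium was removed before irradiation, and whether it was also removed from the non-irradiated dishes is not given in the sources used here.

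Mineral forms where phosphate is plentiful and pyrophosphate, which blocks crystal growth, is scarce. ENPP1 makes pyrophosphate from extracellular ATP, ANK passes ATP and pyrophosphate out of the cell, and the phosphatase ALPL degrades pyrophosphate to phosphate. In bone, osteocytes also act on the whole body's phosphate: they secrete FGF23, which makes the kidney excrete phosphate, while PHEX and DMP1 hold FGF23 down.

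In irradiated cells 3 of the 7 tested genes were higher (Slc20a1, Slc20a2 and Alpl), 2 were lower (Phospho1 and Ank), and Enpp1 and Phex did not pass the test. The size of the changes was at most a factor of 1.36, that of Phospho1. The share of 5 in 7 (71.4%) stands beside 15% of all 15164 tested genes past the same threshold, with 8.22% higher and 6.75% lower. The 10 genes were chosen with earlier results of these data known, so their share cannot be read as enrichment. The threshold is a p of 0.05 from the quasi-likelihood test of edgeR after Benjamini-Hochberg adjustment. The count of 5 fell to 3 (2 higher and 1 lower) when C5, C8, L5 or L7 was left out, with Slc20a2 and Phospho1 no longer called. The groups did not overlap for 3 of the 7 genes in the upward and 1 in the downward direction, against 9.76% and 8.78% of tested genes. The median log2 fold change of the 7 was 0.097 and the median size, ignoring sign, 0.20, against -0.0065 and 0.13 over all tested genes. A log2 fold change above 0 stands for a higher level after irradiation. Levels are in CPM, counts scaled to a common library size with TMM factors, as mean ± SD with n = 4 per group. The labels do not say whether libraries of a group came from separate cultures, so p-values measure only the spread between these libraries, which may be technical. In bulk RNA, fewer cells expressing a gene and less of its RNA per cell cannot be told apart.

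**Figure D1:**
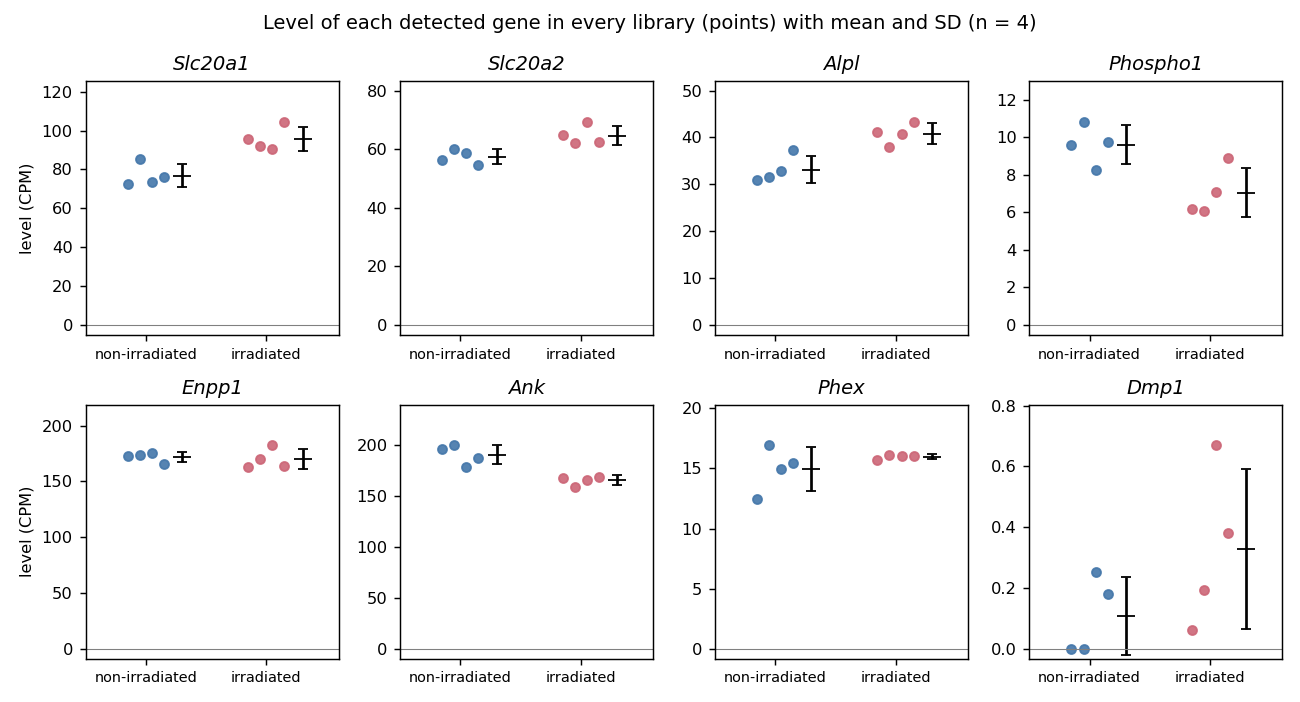
Level in CPM (vertical axis) of the 8 detected genes in each non-irradiated and irradiated library (points), with the mean and SD of the 4 libraries beside them. Slc20a1, Slc20a2 and Alpl lay higher in every irradiated library than in any non-irradiated one, and Ank lower.

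The deposited libraries were large, from 43786209 to 51734166 counts, with 19034 to 19508 genes having at least 1 count. Principal component 1 held 27.7% of the variance and separated the groups, and on component 2 (13.5%) L7 stood farthest out, at -19.6 against -6.74 to 12.5 for the other libraries. Of 9 osteocyte markers 4 were at 0 in every library (Sost, Mepe, Fgf23 and Dkk1), while the list summed to 757 to 785 CPM without and 946 to 982 CPM with irradiation, most of it from Pdpn and Gja1. Chondrocyte markers summed to 139.7 to 143.6 and 209.5 to 228.8 CPM, nearly all from Sox9, with Acan at 0. Osteoblast markers, among them Alpl, summed to 1102 to 1235 and 1176 to 1272 CPM, most of it from Col1a1, with Ibsp at 0. Adipocyte markers summed to 13.5 to 19.3 and 13.9 to 17.6 CPM, nearly all from Cebpa, with Adipoq at 0. Macrophage and osteoclast markers summed to 13.2 to 15.8 and 24.6 to 27.6 CPM and came almost wholly from Csf1r, which rose (edgeR adjusted p = 1.06e-07, with a log2 fold change of 0.88 and an SE of 0.077), with Ptprc, Adgre1, Acp5 and Calcr at 0. The part of these markers in the results below was not tested.

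The sequences before the starts of Slc20a1, Alpl, Phospho1 and Ank, the changed members with a matched window, are shown so that genes that rose and genes that fell can be compared. Each run is the 250 bases before the gene's first listed start in RefSeq (GRCm38.p6, not the build the authors named), 5′ to 3′ on the gene's own strand. Capitals mark matches on either strand to the GC box (GGGCGG), the CCAAT box (CCAAT), the AP-1 element (TGANTCA), the RUNX core (TGTGGT) and the E-box (CACGTG). The TATA box (TATAAA) was searched too, and all 6 motifs were chosen with the genes' values known. RefSeq windows were matched for 9 of the 10 genes.
Slc20a1, chr2:129198523-129198772, plus strand: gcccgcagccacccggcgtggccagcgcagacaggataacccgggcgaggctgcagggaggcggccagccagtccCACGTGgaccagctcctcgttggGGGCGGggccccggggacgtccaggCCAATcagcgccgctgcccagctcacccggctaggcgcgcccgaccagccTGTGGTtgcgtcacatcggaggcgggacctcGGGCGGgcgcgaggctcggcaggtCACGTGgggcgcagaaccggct
Alpl, chr4:137796385-137796634, minus strand: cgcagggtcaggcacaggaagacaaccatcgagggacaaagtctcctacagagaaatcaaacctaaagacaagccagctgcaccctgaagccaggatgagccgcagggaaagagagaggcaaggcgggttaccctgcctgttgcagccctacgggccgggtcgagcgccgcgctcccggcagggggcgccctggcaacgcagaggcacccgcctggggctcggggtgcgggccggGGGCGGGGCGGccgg
Phospho1, chr11:95824250-95824499, plus strand: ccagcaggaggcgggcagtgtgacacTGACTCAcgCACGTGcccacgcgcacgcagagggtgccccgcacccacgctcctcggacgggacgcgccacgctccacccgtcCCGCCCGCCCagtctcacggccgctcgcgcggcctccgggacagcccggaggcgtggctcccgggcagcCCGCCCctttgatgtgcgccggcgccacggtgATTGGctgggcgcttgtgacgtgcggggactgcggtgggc
Ank, chr15:27466427-27466676, plus strand: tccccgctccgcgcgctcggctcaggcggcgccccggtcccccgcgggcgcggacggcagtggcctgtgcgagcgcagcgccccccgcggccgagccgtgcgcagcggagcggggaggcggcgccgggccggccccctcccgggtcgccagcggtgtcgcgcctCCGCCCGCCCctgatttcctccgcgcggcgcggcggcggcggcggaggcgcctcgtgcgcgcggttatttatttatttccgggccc

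The GC content of these runs was 75.2% for Slc20a1, 68.4% for Alpl, 75.6% for Phospho1 and 81.2% for Ank, against a median of 52.4% (quartiles 45.2% and 61.2%) over 32851 windows of the same length. The GC box is present in all 4 and in 32.7% of all windows. An E-box lies at 2 places before Slc20a1 and 1 before Phospho1 and is in 6.02% of all windows. Before Phospho1 there is 1 AP-1 match (6.75% of all windows), before Slc20a1 1 RUNX core match (14.05%), and each of these genes has 1 CCAAT box (33.8%). The TATA box (12.4%) is in none of the 4 runs but in the run before the other listed start of Alpl. These motifs also lie before members that were not called. The RUNX core is before Enpp1, Mepe and 1 listed start of Dmp1, and the E-box before the other Dmp1 start. The CCAAT box is before Mepe and both Dmp1 starts, and the TATA box before Mepe. Genes that rose and genes that fell share the GC box. It is also in the run before Enpp1 (61.2% GC), a member that did not pass the test. No GC box lies before Phex (39.2% GC), the other such member, or before Dmp1, Mepe and Fgf23. The share of 32.7% was not taken over windows of like GC content. Gene counts do not say which start was used.

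Among the phosphate importers, both members rose. Slc20a1 (ENSMUSG00000027397.15) encodes PiT-1, a sodium-dependent phosphate cotransporter of the plasma membrane. It stood at 72.8, 85.2, 73.3 and 76.1 CPM in C5 to C8 and at 95.8, 92.2, 90.8 and 104.6 CPM in L5 to L8. Every irradiated library was above every non-irradiated one, and C6 and L8 were the highest of their groups. The mean went from 76.8 ± 5.76 to 95.8 ± 6.21 CPM, a 1.25-fold rise (edgeR adjusted p = 0.000389, with a log2 fold change of 0.32 and an SE of 0.055). Slc20a2 (ENSMUSG00000037656.10) encodes PiT-2, the widely expressed second importer of the family. Its levels were 56.5, 60.3, 58.7 and 54.8 CPM without and 64.8, 62.1, 69.5 and 62.6 CPM with irradiation. The groups again did not overlap, but C6 and L6 were only 1.82 CPM apart. The rise was 1.12-fold, from 57.6 ± 2.41 to 64.7 ± 3.37 CPM (edgeR adjusted p = 0.029, with a log2 fold change of 0.17 and an SE of 0.051). The Slc20a2 call was lost without C5, C7, C8, L5 or L7 (adjusted p up to 0.108, without L7) and with library totals alone (0.0558), with a range of 0.0103 to 0.108 over 17 alternatives.

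Summed per kilobase of exon, the importers together stood at 22.1 to 25.0 in non-irradiated and 26.5 to 28.8 CPM per kilobase in irradiated libraries. Slc20a1 made up 59.8 ± 1.42% of that sum before and 62.2 ± 2.36% after irradiation, and these shares overlapped between the groups. Other phosphate transporters were few. Xpr1, the phosphate exporter, was at 56.9 ± 2.96 and 56.5 ± 0.737 CPM (log2 fold change -0.011, edgeR adjusted p = 0.922). Slc34a1 and Slc34a3, importers of the kidney, had 0 counts throughout, and Slc34a2 and Slc17a1 had counts in only 1 library each.

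The 2 phosphatases that release phosphate moved in opposite directions. Alpl (ENSMUSG00000028766.11) encodes tissue-nonspecific alkaline phosphatase, the enzyme on the outer membrane whose loss causes hypophosphatasia. It was at 30.9, 31.6, 32.8 and 37.3 CPM in C5 to C8 and at 41.1, 37.9, 40.8 and 43.4 CPM in L5 to L8. C8 came close to L6, and the groups did not overlap. The rise was 1.23-fold, from 33.2 ± 2.86 to 40.8 ± 2.24 CPM (edgeR adjusted p = 0.00371, with a log2 fold change of 0.30 and an SE of 0.066). Its relatives of the gut and placental type were at or near 0: Akp3 and Alppl2 had 0 counts and Alpi 8 counts in 1 library.

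Phospho1 (ENSMUSG00000050860.7) encodes a phosphatase that frees phosphate from phosphocholine and phosphoethanolamine inside matrix vesicles. Its counts gave 9.58, 10.8, 8.27 and 9.74 CPM without and 6.17, 6.05, 7.08 and 8.91 CPM with irradiation. Here the groups overlapped, since L8 was above C7. The mean fell from 9.60 ± 1.05 to 7.05 ± 1.323 CPM (edgeR adjusted p = 0.0308, with a log2 fold change of -0.45 and an SE of 0.136). The call was lost without any library other than C7 and L8 (adjusted p up to 0.105, without L5) and without both libraries numbered 6 (log2 fold change -0.31, adjusted p = 0.178), with a range of 0.00747 to 0.178 over 17 alternatives.

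The Phospho1 counts carry a further limit. In GENCODE release M21, 89.6% of its exon bases also lie in exons of Zfp652 on the same strand and 84.2% in exons of Abi3 on the opposite strand. Zfp652, a zinc finger gene with a long annotated transcript that runs across Phospho1, was at 52.01 ± 2.99 and 50.03 ± 2.94 CPM (log2 fold change -0.056, edgeR adjusted p = 0.587), and Abi3 at 0.284 ± 0.402 and 0.293 ± 0.472 CPM. The annotation release and strand setting behind the deposited counts are not given. If that annotation holds the long Zfp652 transcript, reads from it and from Phospho1 cannot be told apart in gene counts. No other member shared more than 8.1% of its exon bases with a gene of the opposite strand (Slc20a1 with 9830144P21Rik, at 1.53 ± 0.415 and 1.90 ± 0.382 CPM).

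Of the pyrophosphate genes, Ank fell and Enpp1 did not pass the test. Ank (ENSMUSG00000022265.8) encodes the membrane protein whose loss in mice gives progressive ankylosis, with mineral deposits in joints. It was at 196.5, 199.96, 178.8 and 187.8 CPM in C5 to C8 and at 168.1, 158.6, 166.4 and 169.3 CPM in L5 to L8. Every irradiated library was below every non-irradiated one, the nearest being L8 and C7. The mean fell from 190.8 ± 9.49 to 165.6 ± 4.81 CPM, by a factor of 1.15 (edgeR adjusted p = 0.000927, with a log2 fold change of -0.20 and an SE of 0.039). Enpp1 (ENSMUSG00000037370.14), the ectoenzyme that cleaves ATP to AMP and pyrophosphate, stood at 172.7, 173.5, 175.8 and 165.7 CPM without and 163.3, 169.97, 182.3 and 163.6 CPM with irradiation. L7 held the highest value and L5 the lowest. Its log2 fold change was -0.018 with a 95% interval of -0.099 to 0.063 (edgeR adjusted p = 0.828), and without L5 it was 0.00013.

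Within each library the levels of these genes could be set against each other per kilobase of exon. The ratio of Alpl to Ank was 0.141, 0.142, 0.164 and 0.178 in C5 to C8 and 0.219, 0.214, 0.219 and 0.229 in L5 to L8. All irradiated libraries were above all non-irradiated ones, as the separate changes of the 2 genes make it. Alpl to Phospho1 went from 1.75 ± 0.248 to 2.96 ± 0.39, with no overlap, within the limit on Phospho1 given above. Alpl to Enpp1 was 0.492 ± 0.0546 and 0.612 ± 0.0532, and the groups overlapped, with C8 (0.573) above L6 (0.567) and L7 (0.569). Enpp1 to Ank was 0.318 ± 0.019 and 0.361 ± 0.0235, and Slc20a1 to Slc20a2 1.49 ± 0.0875 and 1.65 ± 0.166. In both of these cases the groups overlapped. These ratios are descriptions and were not tested.

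**Figure D2:**
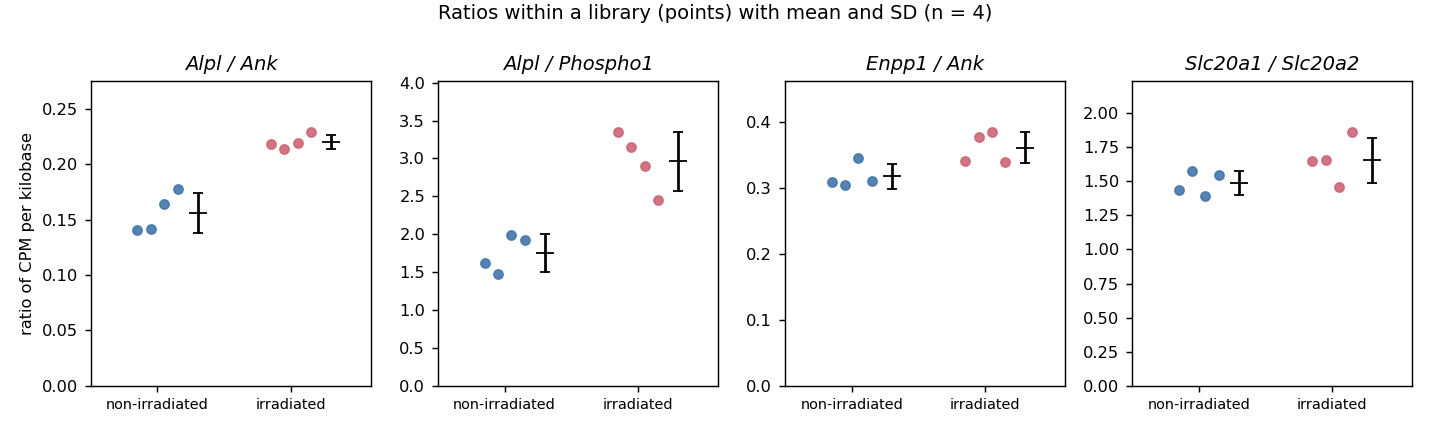
Ratio of CPM per kilobase of exon (vertical axis) for 4 pairs of genes in each non-irradiated and irradiated library (points), with mean and SD. The Alpl to Ank and Alpl to Phospho1 ratios are higher in every irradiated library, and the other ratios shown overlap.

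The osteocyte regulators of systemic phosphate were low or undetected. Only Phex (ENSMUSG00000057457.12), the endopeptidase gene mutated in X-linked hypophosphatemia, passed the expression filter. Per kilobase of exon it was the lowest of the 7 tested genes. It was at 12.5, 16.9, 14.99 and 15.4 CPM in C5 to C8 and at 15.7, 16.1, 16.1 and 16.1 CPM in L5 to L8. The irradiated libraries lay close together inside the range of the non-irradiated ones, where C5 was lowest. The log2 fold change was 0.097 with a 95% interval of -0.095 to 0.289 (edgeR adjusted p = 0.559). It was 0.023 without C5 and 0.16 without C6, and did not pass the test in any of the 17 alternatives.

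Dmp1 (ENSMUSG00000029307.8) encodes an acidic phosphoprotein that binds mineral and helps keep FGF23 low. It had 0, 0, 12 and 9 counts in the non-irradiated and 3, 10, 29 and 19 counts in the irradiated libraries, or 0.108 ± 0.128 and 0.327 ± 0.263 CPM. C5 and C6 had none and L7 had the most, and the groups overlapped. The difference of 0.219 CPM gave p = 0.143 in a two-sided exact permutation test over the 70 arrangements of the libraries, where the smallest possible p is 0.0286. It was 0.105 CPM without L7. With the filter lowered to 1 count, the edgeR adjusted p was 0.369 (log2 fold change 1.57, SE 1.02).

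Mepe, which encodes a matrix protein whose acidic peptide blocks mineral, and Fgf23 had 0 counts in all libraries. A count of 0 allows up to 3 counts, or 0.0692 CPM in the smallest scaled library. In the table the value 4 is more frequent than 3 or 5 (6096 values against 4006 and 2428), and if a fragment adds 4 counts the limit becomes 0.277 CPM. These limits cover counting error only.

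Dmp1 and Mepe belong to a family of secreted acidic bone phosphoproteins whose 5 genes (Dspp, Dmp1, Ibsp, Mepe and Spp1) are neighbours on chromosome 5. Their levels lay far apart. Spp1, the gene of osteopontin, had a mean level of 9353 ± 256 CPM before and 9752 ± 216 CPM after irradiation (edgeR adjusted p = 0.102, with a log2 fold change of 0.060 and an SE of 0.024). Ibsp, Dspp and Mepe were at 0 and Dmp1 at 0 to 29 counts in the same libraries.

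Per kilobase of exon, Ank was the highest of the 10 genes in non-irradiated cells, at 52.8 ± 2.63 CPM per kilobase. Enpp1 followed at 16.8 ± 0.427, Slc20a1 at 13.8 ± 1.03, Slc20a2 at 9.26 ± 0.388, Alpl at 8.22 ± 0.708, Phospho1 at 4.73 ± 0.517, Phex at 2.38 ± 0.295 and Dmp1 at 0.0389 ± 0.046. Neighbours in this order did not overlap over the 4 libraries, except Slc20a2 (8.81 to 9.70) and Alpl (7.67 to 9.25). In irradiated cells Slc20a1 (17.2 ± 1.11) and Enpp1 (16.6 ± 0.866) overlapped too, with Slc20a1 the higher in mean, and Phospho1 (3.48 ± 0.652) remained above Phex (2.54 ± 0.0297). With the longest transcript as the length, the order in non-irradiated cells was the same, and Slc20a1 stood at 23.2, Slc20a2 at 16.1, Alpl at 13.2 and Enpp1 at 25.4 CPM per kilobase.

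**Figure D3:**
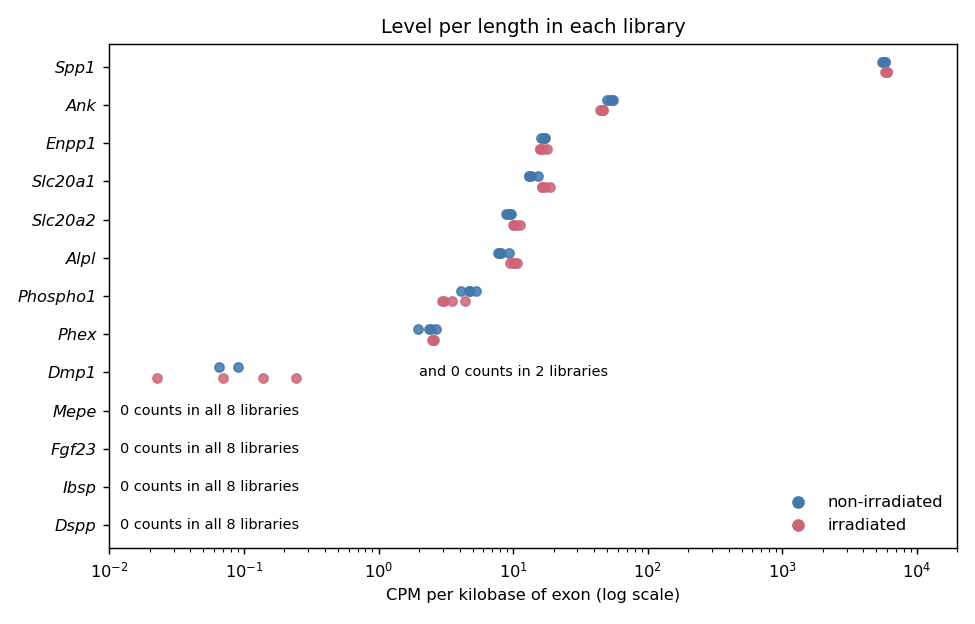
CPM per kilobase of exon (log axis) of the 10 genes and of their neighbours Spp1, Ibsp and Dspp, with 1 point per library. Spp1 lies near 5675 to 5918 CPM per kilobase in mean, the 7 tested genes between about 2.38 and 52.8 in non-irradiated cells, and Mepe, Fgf23, Ibsp and Dspp are undetected.

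Other genes of the same pathways were read from 5 lists with 34 genes, of which 23 were tested. Of those 4 were higher, 1 was lower and 18 did not pass, with a median log2 fold change of 0.019. The 5 called genes are 21.7% of those tested, beside 15% of all tested genes. These lists too were chosen with earlier results of these data known. At 0 in all libraries were Slc34a1, Slc34a3, Pcsk5, Kl, Abcc6, Ibsp and Dspp. In the FGF23 list 2 of 6 tested genes rose, beside 8.22% of all tested genes. Furin, the proprotein convertase that can cut FGF23, was at 701, 747, 675 and 694 CPM in C5 to C8 and at 1199, 1200.4, 1271 and 1243 CPM in L5 to L8. The irradiated values were far above the others, a 1.74-fold rise (edgeR adjusted p = 6.3e-12, with a log2 fold change of 0.80 and an SE of 0.032). Fgfr1, the receptor that FGF23 uses together with klotho, rose 1.12-fold from 204 ± 13.2 to 228 ± 12.7 CPM (edgeR adjusted p = 0.0288), with overlap between C6 and L6, while the klotho gene Kl was at 0. The Fgfr1 call was lost when C7, C8, L5, L7 or L8 was left out (at most 0.0956, for L7; range over 17 alternatives 0.000568 to 0.0958). Fam20c (36.4 ± 2.9 and 34.6 ± 0.94 CPM) and Galnt3 (8.06 ± 2.02 and 9.48 ± 1.22 CPM), which phosphorylate and glycosylate FGF23, did not pass the test (adjusted p = 0.496 and 0.371).

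In the pyrophosphate and adenosine list, 1 of 5 tested genes rose and 1 fell, beside 8.22% higher and 6.75% lower of all tested genes. Ppa1, the cytosolic pyrophosphatase, stood at 60.7, 67.0, 61.0 and 63.4 CPM without and 77.3, 73.8, 73.6 and 75.1 CPM with irradiation. The groups did not overlap, and the rise was 1.19-fold (edgeR adjusted p = 0.000772, with a log2 fold change of 0.25 and an SE of 0.046). Ppa2, the other pyrophosphatase gene of the list, was at 29.2 ± 2.36 and 26.0 ± 2.08 CPM, with overlap. Its log2 fold change was -0.17, and it did not pass the test (edgeR adjusted p = 0.145, unadjusted 0.0353). Slc29a1, an adenosine transporter, was at 609, 627, 586 and 622 CPM in C5 to C8 and at 523, 532, 531 and 552 CPM in L5 to L8. It fell in all 4 irradiated libraries (edgeR adjusted p = 0.00011, with a log2 fold change of -0.19 and an SE of 0.030). Nt5e, which makes adenosine from AMP, was at 33.5 ± 3.26 and 37 ± 3.83 CPM (adjusted p = 0.264), and Abcc6, a transporter that supplies ATP for pyrophosphate, was undetected. Of the relatives of Enpp1, Enpp5 went from 62.7 ± 4.98 to 55.6 ± 2.34 CPM and fell (log2 fold change -0.17, edgeR adjusted p = 0.0464). That call ended without any library other than C5, with limma-voom (0.0663) and without both libraries numbered 6 (0.148), over a range of 0.0168 to 0.148. Enpp3 was at 8.05 ± 1.263 and 8.23 ± 0.913 CPM (log2 fold change 0.032, edgeR adjusted p = 0.913). Enpp4 was at 59.1 ± 3.41 and 53.5 ± 1.196 CPM (log2 fold change -0.14, edgeR adjusted p = 0.0669), and was called lower by DESeq2, with library totals alone or upper-quartile scaling, and without C8 (0.0316 to 0.219 over 17 alternatives).

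Of the matrix vesicle genes 0 of 5 passed the test by edgeR, beside 15% of all tested genes. A list of 5 is too short to set apart from that share. Phospho2, a relative of Phospho1, was at 16.7 ± 1.16 and 14.9 ± 1.06 CPM, with overlap (log2 fold change -0.16, adjusted p = 0.247). The annexin gene Anxa2, the 1 gene of the list with an unadjusted p under 0.05 (0.0109), was at 1261 ± 20.1 and 1202 ± 16.5 CPM (log2 fold change -0.07, adjusted p = 0.0651), without overlap. It was called lower with DESeq2, limma-voom, upper-quartile scaling and library totals alone (0.0144 to 0.175 over 17 alternatives). In the list of matrix and mineral proteins, Tmem119, which encodes a membrane protein of osteoblasts and not a matrix protein, rose 1.19-fold from 19.4 ± 1.12 to 23 ± 1.66 CPM (edgeR adjusted p = 0.0293). The other 5 of 6 tested genes did not pass, so that 16.7% were called, beside 15% of all tested genes. Without C7, C8, L5, L6 or L7, or without both libraries numbered 6, Tmem119 lost its call (0.0145 to 0.1 over 17 alternatives). Mgp, the gene of matrix Gla protein, an inhibitor of soft tissue mineral, was at 1.09 ± 0.533 and 0.622 ± 0.24 CPM (edgeR adjusted p = 0.238).

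**Figure D4:**
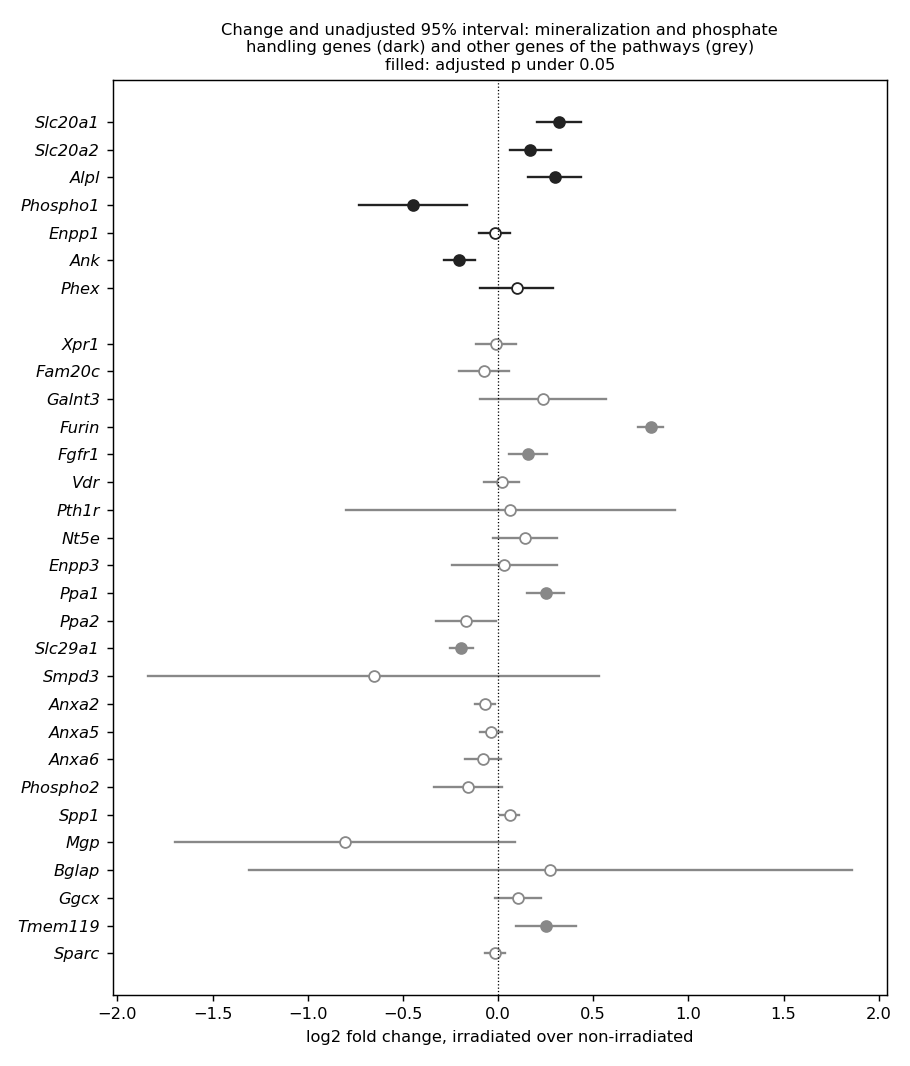
Log2 fold change (horizontal axis, irradiated over non-irradiated) with its unadjusted 95% interval for the 7 tested genes (dark) and the 23 tested genes of the 5 lists (grey). Filled points pass an adjusted p of 0.05; Furin, at 0.80, lies farthest from 0 among them.

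Over the 8 libraries, the genes most like each changed member in their pattern of log2 CPM were found among 11056 other genes. Both groups enter these correlations, so they mostly follow the group difference, and with 8 libraries high values are common. Slc20a1 was closest to Zfp715 (Pearson r 0.989) and Naa25 (0.988), and Slc20a2 to Vps13d (0.981) and Akap1 (0.973). Alpl was closest to Impdh1 (0.972) and Emilin2 (0.971). Ank was closest to Uck2 (0.988) and Prickle2 (0.979), and Phospho1 to Ablim3 (0.993) and Camk1d (0.968).

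Slc20a1, Alpl and Ank kept their direction and their call in each of the 17 alternative analyses. Their log2 fold changes ran from 0.27 to 0.40 for Slc20a1, from 0.27 to 0.36 for Alpl and from -0.23 to -0.16 for Ank, with adjusted p up to 0.00332, 0.0222 and 0.00876.

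**Figure D5:**
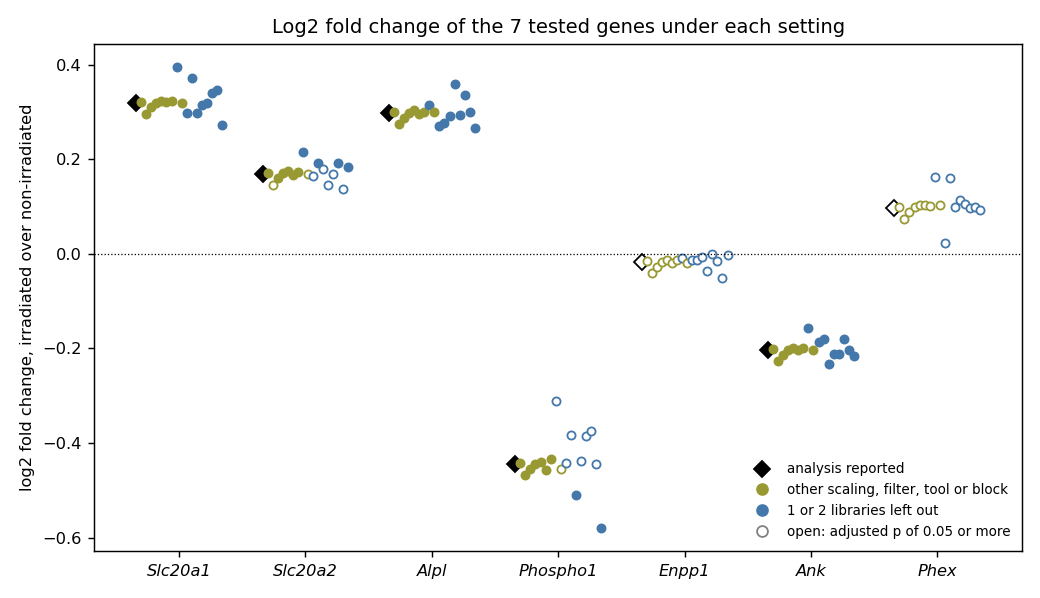
Log2 fold change (vertical axis) of the 7 tested genes in the reported analysis (black diamonds) and in 17 alternatives, with open symbols for an adjusted p of 0.05 or more. Slc20a1, Alpl and Ank are filled throughout, while Slc20a2 and Phospho1 turn open when single libraries are left out.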

How the data were processed

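Gene counts from RNA-seq of 8 libraries were analysed. The table deposited by the authors holds estimated counts in whole numbers with no scaling. The build was GRCm39, per the submitters' processing notes, which also list StringTie 2.1.7, HISAT2 2.2.1, DESeq2 1.32.0, FastQC 0.11.9 and Trimmomatic 0.39. For their order, settings, annotation release and strand setting: not given in the sources used here. For genes averaging 5 to 100 counts, the variance was 4.21 and 4.32 times the mean (medians, non-irradiated and irradiated); what part of that spread is counting error was not tested.

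Columns are numbered 5 to 8 and sample titles 1 to 4, so a column was tied to its group and not to a sample. Symbols, exon lengths and overlaps came from GENCODE release M21 (GRCm38), which named 52083 of 55359 identifiers (99.6% of counts); no gene coordinates are printed. Exon length is the union of a gene's exons. Promoter runs came from RefSeq (GRCm38.p6).

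Genes were kept by edgeR's filterByExpr (minimum count 10; 15164 genes), scaled by TMM (factors 0.989 to 1.01) and tested with glmQLFit (robust) and glmQLFTest in edgeR 4.0.16 (R 4.3.3), group being the only term, with Benjamini-Hochberg adjustment over all tested genes and a threshold of 0.05. SE is the log2 fold change divided by the root of F. Likeness used log2(CPM + 0.5). Dmp1, below the filter, was tested by exact permutation of CPM. DESeq2 1.42.0, limma-voom (limma 3.58.1), other scalings, filters, counts divided by 4 and left-out libraries were alternatives.

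The 10 genes and all lists were chosen with earlier results of these data known. Named were the 10 genes, list genes past the threshold or at 0, genes of the list of relatives with a mean of at least 1 CPM, and the 2 most similar genes of each changed member. Xpr1, Slc34a2, Slc17a1, Ppa2, Enpp3, Phospho2, Fam20c, Galnt3, Nt5e, Anxa2, Spp1 and Mgp were named after their values were seen. So were Alpi, Akp3, Alppl2 and the overlapping genes.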

Additional observations from a re-analysis of the deposited data

Results flagged for a closer look

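Of 36 groups of 4 libraries examined for the members and the other genes tested again under each alternative, 1 held a library far from the rest; chance flags about 1 group in 20. It was Phex in irradiated cells, where L5 was at 15.7 CPM and the nearest other library at 16.1 CPM, a gap that takes 83.8% of the group's range. The irradiated libraries differed by little (SD 0.187 CPM).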

How the results depend on the processing

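Between 1672 and 2673 genes passed when 1 library was left out, against 2270 with all. The count of members higher stayed at 2 or 3. Of members lower, 1 was left without both libraries numbered 6 and 1 to 2 without single libraries. Of the other pathway genes, 2 to 4 were higher without single libraries, and 2 were lower with DESeq2, library totals alone, upper-quartile scaling or limma-voom. With library totals alone 43.8% of the called genes were higher, against 54.9% with TMM. The log2 fold change of Enpp1 ran from -0.0505 to 0.00013 without single libraries. With the longest transcript as the length, the levels were 23.2 (Slc20a1), 16.1 (Slc20a2), 13.2 (Alpl) and 25.4 (Enpp1) CPM per kilobase. Where not shown by fewer libraries, the cause was not tested.

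Libraries with the same column number did not deviate together (correlations of -0.0438 to -0.00383), so the numbers were not taken to pair samples. With the number as a replicate block 1757 genes passed, 2 members were higher and 1 lower, and 2 other pathway genes were higher and 1 lower. Slc20a2, Phospho1, Fgfr1, Tmem119 and Enpp5 were then past 0.05 (adjusted p 0.0523, 0.0547, 0.0958, 0.0738 and 0.0629). Mepe and Fgf23 had 0 counts throughout and Dmp1 at most 29 counts in a library, and the part of depth in this was not tested.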
